A study of Mus musculus with 1016 samples.

Results

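The bins of mouse chromosome 1 that were described here ran over 50-kb steps from chr1:13000001 to chr1:190450000 of GRCm38 (mm10), so that the first 13 Mb and the last 5 Mb of the chromosome were left out. They were 3549 of the 49264 bins of chromosomes 1 to 19 in the deposited tables, and 3486 to 3497 of them had a value in a given group of embryos. Single-cell Repli-seq reads the copy number of DNA in a single cell in S phase, when copied stretches yield more reads than uncopied ones, and each bin of each cell was deposited as replicated or not replicated. The measure is the share of the cells of a group in which a bin was replicated, over cells whose replication score, the percent of called bins replicated, was 10 to 90. The bins were chosen by chromosome and position, and the share of cells is the readout that this choice names, so shares are given as a description with no test.

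All embryos came from (C57BL/6J x CBA) F1 oocytes, with DBA/2J fathers except in parthenotes, which are oocytes activated without sperm and therefore hold maternal genomes only. The natural stages were 66 zygotes (20 to 26 h after hCG injection), 63 cells of 2-cell embryos (32 to 40 h), 55 of 4-cell embryos (50 to 56 h), 56 of 8-cell embryos (66 to 72 h), 40 of 16-cell embryos (77 to 80 h), 47 of morulae (90 to 96 h) and 70 of the blastocyst inner cell mass (ICM, 96 to 104 h). Beside them stood 57 zygotes from in vitro fertilization (IVF, from 5.5 h after insemination), 57 parthenotes (5.5 to 12 h after activation, which used 10 mM strontium for 2 h), and 21 maternal and 17 paternal pronuclei of zygotes separated by micromanipulation at 21 to 25 h. The 2-cell embryos were also collected after 0.1 mg/mL α-amanitin (42 cells) or 100 µM DRB (67 cells), both inhibitors of transcription by RNA polymerase II given at 17 h, and after injection at 18 h of 2 µg/µL mRNA for KDM5B (56 cells), a demethylase of lysine 4 of histone H3. Collection was at 34 to 39 h for α-amanitin and at 34 to 40 h for DRB and KDM5B. The untreated 2-cell embryos of the natural series, of 32 to 40 h, were their reference, so hours were not matched. The labels name no animal for any cell, so each group counts as a single sample, no test between groups was made, and the exact Clopper-Pearson 95% intervals given below cover counting error only. Pronuclei were told apart by size and by position relative to the polar body. Per the study's methods, pronuclei whose allelic read ratio went against this were exchanged. Whether the deposited states carry that exchange could not be settled from the sources used here, so maternal and paternal below are the deposited names, and the labels do not say which pronuclei came from the same zygote.

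Eukaryotic chromosomes are copied in domains of many neighbouring origins, in an order that most cells of a type share. In mammalian cells, early domains are usually rich in GC and in active genes, and late domains are often gene-poor, hold long tissue-specific genes and lie near the nuclear lamina. After fertilization the maternal and paternal genomes first replicate in separate pronuclei, and in the mouse the main wave of embryonic transcription begins at the 2-cell stage.

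Chromosome 1 was divided into 50 neighbouring domains of 1 to 10.7 Mb (median 2.62 Mb), numbered along the chromosome, by a least-squares fit to the shares of the 7 natural stages. The pronuclei, parthenotes, IVF zygotes and treated embryos took no part in placing the borders. Values are given as relative shares, the share minus the mean over all bins of chromosomes 1 to 19 in the same group, in percentage points, so that a positive value stands for a stretch that was replicated in more cells than the average bin. Domains were not equal in sequence or genes. The 15 domains above the group mean at all 7 stages covered 67 Mb (37.8% of the length) with 10.7 protein-coding genes per Mb and a median GC content of 42.8%. The 13 domains below it at all 7 stages covered 54 Mb (30.4%) with 2.3 genes per Mb and a median GC content of 37.7%, and the remaining 22 domains had 5.21 genes per Mb and 40.7% GC.

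The promoters of both kinds of domain differed in the dinucleotide CG, the site of DNA methylation, which is read the same on both strands. The 200 bases before the start of transcription (RefSeq, GRCm38.p6) held at least 1 CG in 97.4% of 610 genes of the domains always above the mean and in 78.3% of 92 genes of the domains always below it, with a median of 10 and of 2 CG. Over all 918 matched chromosome 1 promoters the share with a CG was 94.4%, and over the 27025 promoters of the table it was 89%. Examples follow, picked after their values were seen to show this contrast, with every CG in capitals. Bmpr2 (chr1:59764079-59764278, plus strand, 20 CG) lies in domain 15, the highest of all domains. Mcm6 (chr1:128359706-128359905, minus strand, 13 CG) lies in domain 33, which is described below for its values in maternal and paternal pronuclei. Cdh7 (chr1:109982700-109982899, plus strand, 9 CG) and Brinp3 (chr1:146495429-146495628, plus strand, 2 CG) lie in domains 29 and 39, both always below the mean.
Bmpr2: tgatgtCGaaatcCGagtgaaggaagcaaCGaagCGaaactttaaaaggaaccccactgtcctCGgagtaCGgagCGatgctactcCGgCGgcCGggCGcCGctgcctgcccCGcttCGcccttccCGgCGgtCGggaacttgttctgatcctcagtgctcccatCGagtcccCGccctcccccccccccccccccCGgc
Mcm6: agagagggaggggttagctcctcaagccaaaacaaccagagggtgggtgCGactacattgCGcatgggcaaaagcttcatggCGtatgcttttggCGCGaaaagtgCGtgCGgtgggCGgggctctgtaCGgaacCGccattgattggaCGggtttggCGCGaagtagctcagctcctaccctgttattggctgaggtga
Cdh7: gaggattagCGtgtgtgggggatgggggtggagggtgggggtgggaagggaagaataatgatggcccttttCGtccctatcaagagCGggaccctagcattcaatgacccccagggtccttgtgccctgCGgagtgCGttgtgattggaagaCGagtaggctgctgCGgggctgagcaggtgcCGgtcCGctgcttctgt
Brinp3: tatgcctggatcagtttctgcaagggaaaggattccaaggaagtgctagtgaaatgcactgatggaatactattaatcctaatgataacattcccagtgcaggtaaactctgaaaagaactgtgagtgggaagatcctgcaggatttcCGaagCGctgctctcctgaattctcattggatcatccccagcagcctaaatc
The Cdh7 promoter had as many CG as the median of 9 over all matched chromosome 1 promoters, and 15.2% of promoters in the domains always below the mean had 10 CG or more, against 51% in those always above it.

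Cells of some collection hours stood apart from their stage. The 11 8-cell cells of 72 h correlated with the other 8-cell cells at a Spearman's R of 0.27 across chromosome 1 bins, where the other hours of that stage had 0.70 to 0.85. The 9 16-cell cells of 77 h and the 31 of 80 h correlated at 0.15, and the ICM cells of 96 to 100 h (33) and of later hours (37) at 0.81. In the 8-cell cells of 72 h the domains always below the mean had a median relative share of −4.58, against −30.8 in the other 8-cell cells, and in the 16-cell cells of 77 h it was 2.27, against −41.8 at 80 h. For the contrast between domains, the single-cell counts, GC content and the steps between stages, values without these cells are given beside those with them.

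Chromosome 1 as a whole lay close to the average autosome, mostly a little below it. Its mean share minus that of all chromosomes was −0.79 in zygotes, −0.25 in 2-cell, −4.87 in 4-cell, −2.59 in 8-cell, −2.36 in 16-cell, −3.60 in morula and −1.57 percentage points in ICM cells. At the 4-cell stage it was the lowest of the 19 chromosomes, and at the other natural stages it ranked 11 to 17 from the top. In all ranks among chromosomes given here, the ends were left out of chromosome 1 alone and kept in the others. It was above the mean in IVF zygotes (3.88, rank 4), parthenotes (0.93, rank 8) and α-amanitin-treated 2-cell embryos (2.57, rank 6), and below it in maternal pronuclei (−0.60), paternal pronuclei (−2.02), DRB-treated (−1.998) and KDM5B-expressing (−2.15) embryos. Over cells that did not fail the study's quality control the zygote value had the opposite sign, 1.93, as did that of maternal pronuclei, 1.65 without 1 nucleus.

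Over all cells kept, the SD of single cells around these means was larger in zygotes than at the other natural stages. The difference between the chromosome 1 share of a cell and its share on the other chromosomes had an SD of 20.9 percentage points over 66 zygotes, 13.2 over 63 2-cell cells, 10.3 over 55 4-cell cells, 16.5 over 56 8-cell cells, 15.03 over 40 16-cell cells, 6.91 over 47 morula cells and 9.32 over 70 ICM cells. Without the cells of 72 h it was 17.99 at the 8-cell stage, and without those of 77 h 4.28 at the 16-cell stage, below the morula value. In 7 zygotes, 6 parthenotes and 0 to 3 cells of each other group chromosome 1 was more than 30 points from the rest of the genome. These cells are part of the SDs above, and 13 of the 66 zygotes failed the study's quality control. Among cells within 30 points, the differences ran over −17.2 to 26.4 in zygotes and over −22.7 to 25.97 in 2-cell cells. The range of zygotes thus stood apart from that of 2-cell cells only with the cells beyond 30 points. Whether zygotes would keep the largest SD without those cells, or without the failed ones, was not tested. Over all 66 zygotes the differences ran over a range of −79.9 to 60.5, and over all morula cells over −10.5 to 34.2. Among chromosomes, the SD of chromosome 1 ranked 3 of 19 in zygotes, where the chromosomes ran over 14.5 to 22.6, and 8 of 19 in morulae (3.04 to 9.79).

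**Figure D1:**
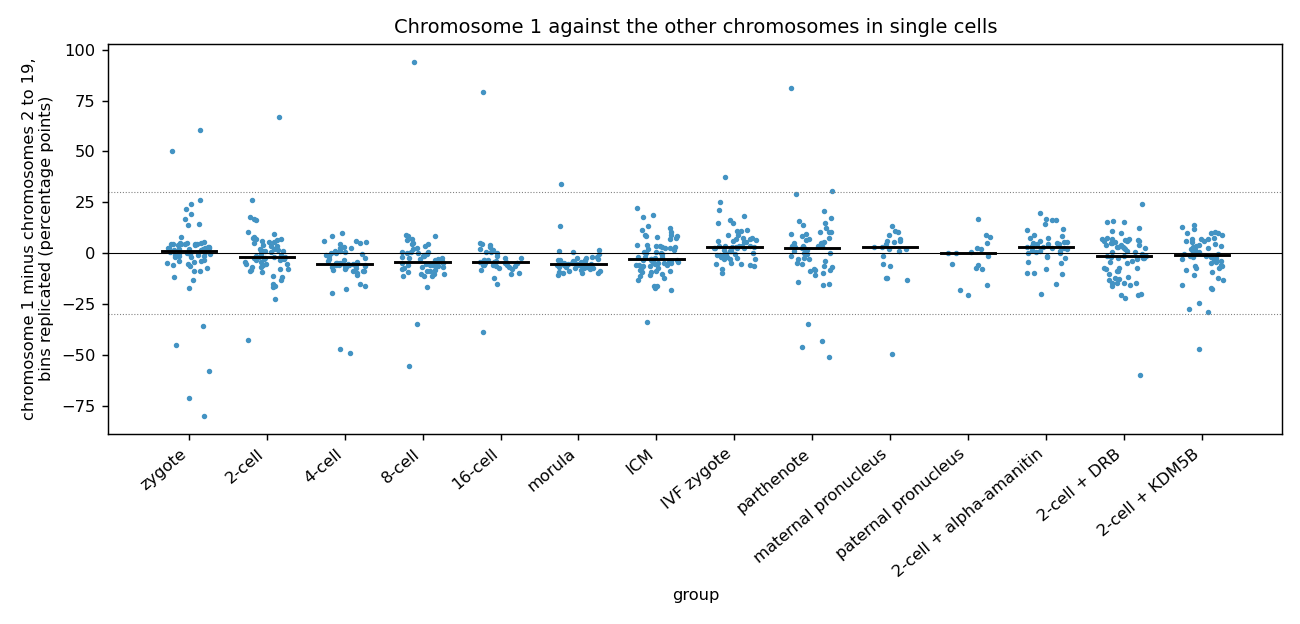
Share of chromosome 1 bins replicated minus the share on chromosomes 2 to 19 (y axis, percentage points) for each cell (points) of the 14 groups (x axis), with the median as a bar and dotted lines at 30 points either way. Zygotes and parthenotes have 7 and 6 cells beyond the dotted lines, and morulae 1.

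The contrast between domains was narrowest at the 2-cell stage, wide in 16-cell and morula cells and narrower again in the ICM. The 15 domains always above the mean had a median relative share of 11.5 in zygotes, 8.69 in 2-cell, 11.8 in 4-cell, 14.7 in 8-cell, 22 in 16-cell, 23.5 in morula and 14.8 percentage points in ICM cells. The 13 domains always below it had −20.2, −13.8, −20.7, −26.1, −32.1, −41.6 and −22.95 at the same stages. The gap between both medians was therefore smallest at the 2-cell stage (22.5) and largest in morulae (65.1), with 31.7 in zygotes and 37.8 in ICM cells. The choice of these domains used the same stages, so their signs are fixed by it and only the sizes describe the stages. The SD of the share over chromosome 1 bins followed the same course, with 15.3 in zygotes, 13.4 in 2-cell, 17.8 in 4-cell, 18.8 in 8-cell, 25.3 in 16-cell, 29.3 in morula and 18.0 in ICM cells. Over all chromosomes it was 15.7, 14.3, 19.97, 17.6, 23.7, 27.1 and 16.5. With the cells of 72 h left out the 8-cell SD was 22 and the medians of both kinds of domain were 17.5 and −30.8, a gap of 48.3. With those of 77 h left out the 16-cell SD was 31.8 and the medians were 26.5 and −41.8, a gap of 68.3, so that both the SD and the gap then lay above those of morulae.

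The same order was then counted in single cells. The domains were chosen from the shares of these cells, so a majority follows largely from that choice. The domains always above the mean were replicated further than those always below it in 54 of 66 zygotes (81.8%, 70.4 to 90.2%), 48 of 63 2-cell (76.2%, 63.8 to 86%), 51 of 55 4-cell, 46 of 56 8-cell, 35 of 40 16-cell, 47 of 47 morula (100%, 92.5 to 100%) and 61 of 70 ICM cells. Without the cells of 72 h it was 39 of 45 8-cell cells, and without those of 77 h 31 of 31 16-cell cells. The median difference in a cell was 25.4 points in zygotes, 22.9 in 2-cell cells and 70.3 in morula cells. Among cells with a score of 30 to 70, a domain was entirely replicated or entirely unreplicated in 34.7% of zygote, 28.4% of 2-cell, 34.9% of morula and 30.05% of ICM combinations of cell and domain.

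**Figure D2:**
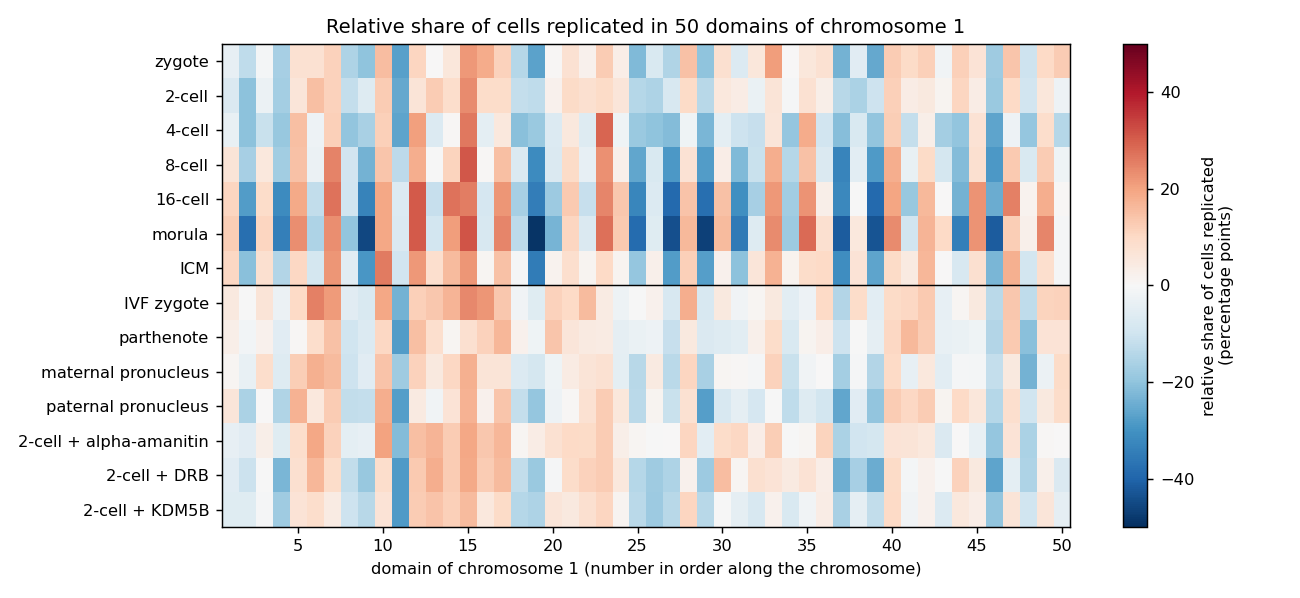
Relative share (colour, percentage points) of the 50 domains of chromosome 1 (x axis, in order along the chromosome) in the 14 groups (rows, 7 natural stages above the line). The colours deepen to the morula, where domain 19 is at −49.2 and domain 15 at 31.5.

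Domain 15 (chr1:59250001-60950000) had the highest mean over the 7 stages, 25.9 points. It held Nbeal1, the gene of the bone morphogenetic protein receptor Bmpr2, and Nop58 (a core protein of small nucleolar ribonucleoproteins). The Wnt receptor gene Fzd7 and the genes of the T-cell surface proteins Cd28 and Ctla4 also lie in domain 15. Its share was 76% in zygotes, 72.8% in 2-cell, 67% in 4-cell, 79.99% in 8-cell, 81% in 16-cell, 89.5% in morula and 77.2% in ICM cells, a range of 9.85 in relative terms. Domains 12 (chr1:54000001-55500000, mean 19.8) and 23 (chr1:84350001-87950000, mean 19.4) came next. Domain 12 holds Hecw2, a ubiquitin ligase, Hspd1 and Hspe1, which encode the mitochondrial chaperonin, and the splicing factor gene Sf3b1. Domain 23 holds Dis3l2, an RNA exonuclease, Ncl (nucleolin) and the proteasome subunit Psmd1.

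The lowest mean, −29.8, was that of domain 19 (chr1:67500001-69100000). It is 1.6 Mb long and holds Erbb4, a gene of 1076 kb for a receptor tyrosine kinase of neuregulins. Its share was 27.6% in zygotes, 36.5% in 2-cell, 22.3% in 4-cell, 17.7% in 8-cell, 20.5% in 16-cell, 8.78% in morula and 20.04% in ICM cells. More than 50% of its called bins were replicated in 4 of 47 morula cells (8.51%, 2.37 to 20.4%) and 17 of 66 zygotes (25.8%, 15.8 to 38%). Both intervals overlap, although the group means lay apart. Domain 29 (chr1:106850001-117550000, mean −28.1), the longest, holds the adhesion genes Cntnap5a, Cdh7 and Cdh19, and domain 37 (chr1:139550001-143050000, mean −28.1) holds Kcnt2, a potassium channel subunit. Gene number alone did not set apart the domains below the mean. Domain 46 (chr1:172750001-175350000, mean −25.8) had 43 genes at 16.5 per Mb, among them Fcer1a and Aim2, and domain 11 (chr1:53000001-54000000, mean −16.6) had 11 genes per Mb. Both were picked out after their values were seen.

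GC content ordered the domains at every stage and did so most in morulae. Spearman's correlation between GC and share over the 50 domains was 0.67 in zygotes, 0.56 in 2-cell, 0.68 in 4-cell, 0.74 in 8-cell, 0.78 in 16-cell, 0.82 in morula and 0.62 in ICM cells. It was 0.78 at the 8-cell stage without the cells of 72 h and 0.81 at the 16-cell stage without those of 77 h. With gene density it was 0.37, 0.30, 0.57, 0.67, 0.78, 0.78 and 0.58. These are descriptions over domains of a single chromosome, which share base composition and libraries. Scaling to the stage mean of each bin was done by the authors before deposit, and the part of GC-dependent read recovery in these values was not tested.

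**Figure D3:**
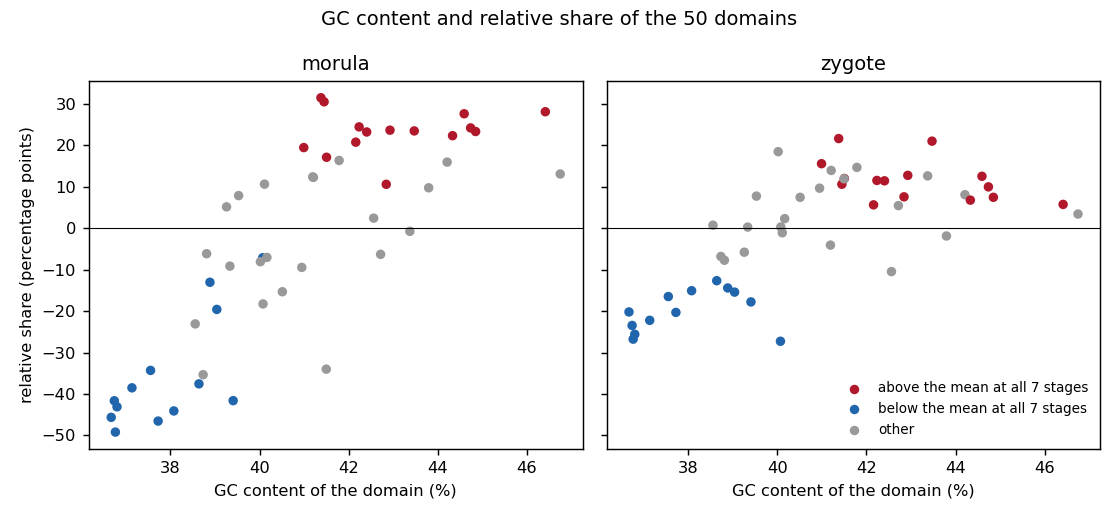
Relative share (y axis, percentage points) against GC content (x axis, percent) of the 50 domains, 1 point each, in morulae (left) and zygotes (right). Domains always below the mean lie at 36.7 to 40.1% GC, and the morula points span −49.2 to 31.5.

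Of 3486 chromosome 1 bins with values at all stages, 1836 (52.7%) were on the same side of the mean at all 7 stages, where the background over all chromosomes was 49.1%. Above it were 873 (25.0%, background 27.9%) and below it 963 (27.6%, background 21.19%). The order of the 50 domains in 2-cell cells and zygotes correlated at 0.82, in 4-cell and 2-cell cells at 0.77, in 8-cell and 4-cell cells at 0.91, in 16-cell and 8-cell cells at 0.93, in morula and 16-cell cells at 0.96, and in ICM and morula cells at 0.88. Between morula and 2-cell cells it was 0.61.

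From stage to stage, differences of 20 percentage points or more were, over all cells kept, most frequent in the ICM and the 4-cell stage. Between 2-cell cells and zygotes 114 bins (3.26%, background 2.33%) were higher and 74 (2.12%, background 2.07%) were lower. In 4-cell compared with 2-cell cells 181 bins (5.19%) were higher and 375 (10.8%) lower, with backgrounds of 12.8% and 7.76%. Chromosome 1 thus had fewer higher and more lower bins than the average at this step. In 8-cell compared with 4-cell cells 190 bins (5.45%, background 3.94%) were higher and 64 (1.84%, background 6.64%) lower. The 16-cell cells differed from 8-cell cells at 62 bins upward (1.78%, background 1.87%) and 115 downward (3.30%, background 3.66%), and morula from 16-cell cells at 17 upward (0.49%, background 1.14%) and 69 downward (1.98%, background 1.77%). In ICM compared with morula cells 502 bins (14.4%, background 13.4%) were higher and 274 (7.86%, background 11.4%) lower. Without the cells of 72 h and 77 h, 399 bins differed in 8-cell compared with 4-cell cells (254 with them) and 466 in 16-cell compared with 8-cell cells (177 with them), and with the later ICM cells alone 1188 differed from morulae and with the earlier ones alone 553 (776 with all). For these smaller sets of cells the shares over all chromosomes were not computed. Over all cells kept, most shares lay near their backgrounds, and the 4-cell and 8-cell steps were the ones farthest from them.

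Domain 50 at the distal end (chr1:185750001-190450000) was 15.2 points lower in 2-cell cells than in zygotes, and domain 39 with Brinp3 was 15.2 points higher. In 8-cell cells domain 3 (chr1:20500001-25600000), with the adhesion receptor gene Adgrb3, was 16.5 points higher than in 4-cell cells, and domain 19 was 12.8 points lower. Domain 14 (chr1:56600001-59250000) was 15.8 points higher in 16-cell than in 8-cell cells, and domain 41 with Astn1, a gene of neuronal migration, was 15.2 points lower. Domain 46 was 16.7 points lower and domain 32 with Nckap5 10.2 points higher in morula than in 16-cell cells. Which domains lay farthest apart at the 8-cell and 16-cell steps depended on the 72 h and 77 h cells. Without them domain 31 was the lowest in 8-cell compared with 4-cell cells (−17.5), domain 47 the highest (17.7) and domain 4 the lowest (−18.5) in 16-cell compared with 8-cell cells, and domain 47 the lowest in morula compared with 16-cell cells (−16.04). Domains 3 and 32 stayed the highest at their steps. Without them also the median of the domains always below the mean was 1.75 points higher in morula than in 16-cell cells, where with them it was 8.94 points lower.

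Among the domains described here, domain 9 (chr1:47250001-50900000) differed most over the stages, by 39.3 points between its highest and lowest relative share, and no protein-coding gene is annotated in it. The share of cells was 34.1% in zygotes, 42.97% in 2-cell, 24.4% in 4-cell, 25.5% in 8-cell, 22% in 16-cell, 12.3% in morula and 25.9% in ICM cells. It was highest in 2-cell and lowest in morula cells, and below the group mean at all 7 stages. The domain was replicated in 3 of 47 morula cells (6.38%, 1.34 to 17.5%) and in 26 of 63 2-cell cells (41.3%, 29 to 54.4%). The domain is described for its range, so the distance between these counts is part of that choice.

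**Figure D4:**
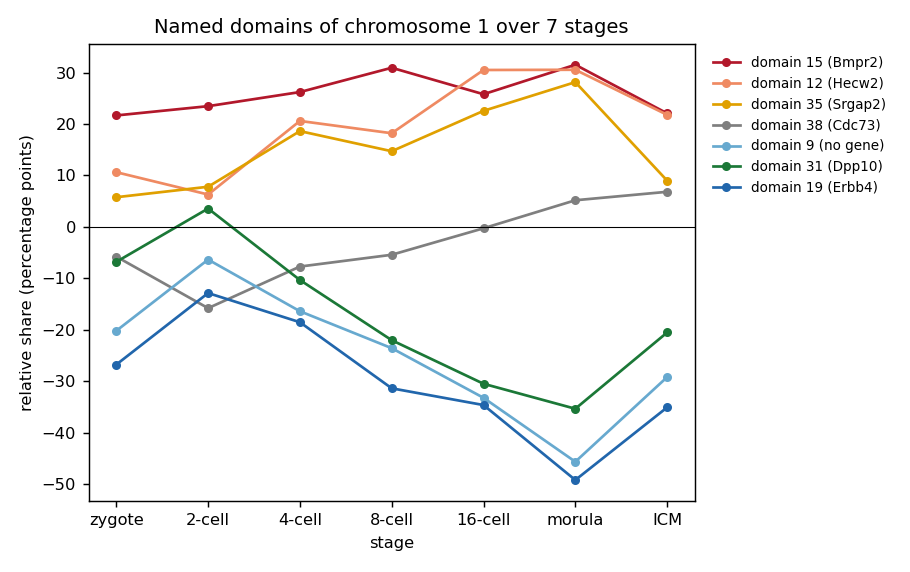
Relative share (y axis, percentage points) of 7 named domains over the 7 natural stages (x axis), each a line named by its number and, where it holds any, by a gene. Domain 9 is at −6.36 in 2-cell and −45.6 in morula cells, and the Bmpr2 domain stays between 21.7 and 31.5.

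Morula and 2-cell cells, the stages with the widest and the narrowest contrast over all cells kept, differed over much of the chromosome. In morulae 569 bins (16.3%, background 19.7%) were higher by 20 points or more and 1046 (30.01%, background 23.1%) were lower. Lower by that much were 13 domains of 46.8 Mb in all with 1.86 genes per Mb, 8 of them always below the mean, and higher were 3 domains of 9.45 Mb with 14.2 genes per Mb. Among them were domain 9 (−39.3 points) and domain 31 (chr1:121900001-125050000, −38.9) with Dpp10, which encodes a protein that binds potassium channels. Domain 31 had 22.6% in morulae and 52.9% in 2-cell cells, the only natural stage at which it was above the mean. The 3 higher domains were domain 12 (24.2 points), domain 38 (20.97), which holds Cdc73 of the PAF1 complex, Uchl5 and several Rgs genes, and domain 35 (20.3), the most gene-dense of these with 16.9 genes per Mb, where Srgap2, Nr5a2, Kdm5b and the Il10 gene cluster lie. In domain 35 the share was 86.1% in morula and 57.1% in 2-cell cells, and 42 of 47 morula cells (89.4%, 76.9 to 96.5%) had the domain replicated, against 37 of 63 2-cell cells (58.7%, 45.6 to 71%).

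In the ICM the domains moved closer to the mean. Relative to morulae, 12 of the 13 domains always below the mean were higher (median 16.5 points) and 14 of the 15 always above it were lower, with a median of −9.45. Past 20 points were 2 domains, both higher, among them domain 20 with Spag16, and the largest negative difference was that of domain 35 (−19.1 points, 64.1% of ICM and 86.1% of morula cells). Both collection times of the ICM showed this, with medians of 19.3 and 13.3 points for the domains always below the mean after 100 h and at 96 to 100 h. At the later time 10 domains were higher and 1 lower by 20 points, at the earlier time 3 were higher and 0 lower.

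Gene groups followed the domains that they lie in. Each gene took the mean relative share of the bins that it overlaps, and over all 1109 protein-coding genes with values the median was 22.9 in morula and 7.03 in 2-cell cells, with 342 genes higher and 63 lower by 20 points in morulae. Of 30 long neuronal and adhesion genes, 8 were above the mean in morulae and 13 in 2-cell cells, and 16 were lower and 1 higher in morulae by 20 points (median difference −21.5). Cntnap5b, of the neurexin family, was at −40.7 in morulae, where 8 of 47 cells had it replicated, and at 13 in 2-cell cells (40 of 63). The cadherin gene Cdh19 was at −55.9 and Erbb4 at −49.3 in morulae, while Aff3 (18.2) and the methyltransferase gene Smyd3 (23.9) were above the mean there and Kcnq5, a potassium channel, was 24.8 points higher than in 2-cell cells. The 42 genes of 300 kb or more had a median difference of −2.69, with 12 lower and 6 higher, where the median over all genes was 15.1. Of these long genes 45.2% were above the mean in morulae, against 87% of all genes. The part of gene length in these values was not tested.

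Most genes of the chromosome were above the mean in morulae, 965 of 1109 (87%), against 745 of 1109 (67.2%) in 2-cell cells, and counts of listed genes above the mean are to be read beside these shares. Of 27 housekeeping genes 27 were above it in morulae and 21 in 2-cell cells, and 10 were higher by 20 points and 0 lower, with Ppox, the penultimate enzyme of haem synthesis, at 32 points. Nop58 differed by 5.8 and Tpr, a protein of the nuclear pore basket, by −16.5. Of 21 genes of replication, repair and chromatin 20 were above the mean in morulae, and 11 were higher by 20 points and 0 lower. The helicase subunit gene Mcm3 was at 16.5 in morulae and −17.6 in 2-cell cells, and Terf1, which encodes a telomere-binding protein, was 31.4 points higher. Rnf2, a ubiquitin ligase of Polycomb complexes, had 37.8 and H3f3a, a gene of histone H3.3, 35.6 in morulae, where the exonuclease gene Exo1 had 12.2 and the kinetochore gene Cenpf −3.7. Both lists were read beside a median of 15.1 points for all genes, against 18.8 and 20.4 for the lists.

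Developmental and tissue-specific genes lay on both sides of the mean. Of all 1109 genes, 87% were above it in morulae, with 342 higher and 63 lower by 20 points than in 2-cell cells. Counts of these lists are given beside that background and are not a result about the lists. Among 31 developmental regulators 24 (77.4%) were above the mean in morulae and 24 in 2-cell cells, with 3 higher and 2 lower by 20 points. The nuclear receptor gene Nr5a2 and its neighbour Zfp281 were at 35.6 in morulae, and Lhx9 and Hlx, both homeobox genes, were 26.7 and 21.4 points higher than in 2-cell cells. Pax3 was 22.1 points lower. Of 15 oocyte and genome activation genes 14 (93.3%) were above the mean in morulae. The exception was Fmn2, a formin needed for spindle positioning in mouse oocytes, at −44.0, while Khdc1b and Khdc1c, which share their bins, were at 20.7 in morulae and −14.4 in 2-cell cells. Of 44 immune and secreted-protein genes 32 (72.7%) were above the mean in morulae, with 14 higher and 3 lower by 20 points. Cd48 and Slamf1 in domain 45 were 33.8 and 32.2 points higher, and Aim2, a sensor of cytosolic DNA, was at −54.8 and replicated in 1 of 47 morula cells. Stat4 was at 31.4. Of 20 matrix and structural genes 17 (85%) were above the mean in morulae, among them the laminin gene Lamc1 (37.8), with the collagen gene Col3a1 at −21.8.

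Between maternal and paternal pronuclei no domain differed by 20 percentage points. In maternal pronuclei 221 bins (6.32%, background 8.90%) were higher and 174 (4.98%, background 7.91%) lower than in paternal pronuclei. Without the 1 maternal pronucleus that failed the study's quality control, 329 bins (9.41%, all chromosomes 8.98%) were higher and 124 (3.55%, all chromosomes 8.499%) lower. All 17 paternal pronuclei have no entry in that quality control, so this step could leave out maternal nuclei only. The order of the 50 domains correlated at 0.80 between both, and GC content ordered them at 0.48 in maternal and 0.63 in paternal pronuclei. The domains always below the mean were nearer to it in maternal pronuclei, with a median of −11.9 against −14.9 in paternal pronuclei, and 11 of 13 were higher in maternal ones. Of those always above the mean 7 of 15 were higher, with medians of 9.95 in maternal and 12.6 in paternal pronuclei.

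The largest positive differences were those of domains 6 (12.3 points), 2 (11.98) and 33 (11.5). Domain 6 (chr1:40350001-42450000) holds the sodium-proton exchanger gene Slc9a2 and the interleukin receptor genes Il1rl1 and Il18r1, and had a share of 77.7% in maternal and 63.7% in paternal pronuclei. Domain 2 (chr1:17400001-20500000), with Pkhd1, had 56.1% in maternal and 42.5% in paternal pronuclei. In domain 33 (chr1:127100001-128800000), with the glycosyltransferase gene Mgat5, the shares were 71.4% in maternal and 58.3% in paternal pronuclei. Mcm6 and Dars, an aspartyl-tRNA synthetase, lie side by side there and were each replicated in 18 of 21 maternal (85.7%, 63.7 to 97.0%) and 10 of 17 paternal pronuclei (58.8%, 32.9 to 81.6%), intervals that overlap. The chemokine receptor gene Cxcr4 of the same domain was replicated in 17 of 21 maternal and 10 of 17 paternal pronuclei.

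The largest negative differences were those of domains 41 (−14.5 points) and 48 (−13.8). Domain 41 (chr1:157800001-158850000), with Astn1, had shares of 55.8% in maternal and 68.6% in paternal pronuclei. In domain 48 (chr1:177500001-178500000), which holds Catspere2 and Hnrnpu, an RNA-binding protein of the nucleus, they were 36.4% and 48.5%, and 5 of 21 maternal (23.8%, 8.22 to 47.2%) and 8 of 17 paternal pronuclei (47.1%, 23 to 72.2%) had it replicated. With 21 and 17 pronuclei, intervals of all of these domains overlapped between maternal and paternal pronuclei.

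Neighbouring genes of the lists share bins, so that those farthest from 0 came in small clusters. Higher in maternal pronuclei were Igfbp2 (27.9), Igfbp5 (24.9), the ribosomal protein gene Rpl37a (26.1) and Smarcal1 (23.7), which lie together in domain 21, as well as Cntnap5a (26.4) and Nr5a2 (20.4). Lower were Capn10 (−28.3), Hjurp (−17.6), Atp1b1 (−25.1), Selp (−24.5), Terf1 (−19.9) and Tnr (−18.4). By list, the median difference ran over a range of −1.94 (housekeeping genes, developmental regulators) to 5.71 (long neuronal genes), and over all 1109 genes it was −2.22, with 23 genes higher and 74 lower by 20 points.

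Along the chromosome the sign of the difference changed at the border of domains 39 and 40 (chr1:150050001). Proximal to that point, in domains 1 to 39, 30 of 39 domains were higher in maternal pronuclei with a median of 4.42 points, and distal to it, in domains 40 to 50, 2 of 11 were, with a median of −6.73. The border was placed after the values were seen, so the split is a description. In single nuclei the proximal stretch was replicated further than the distal one in 8 of 21 maternal (38.1%, 18.1 to 61.6%) and 3 of 17 paternal pronuclei (17.6%, 3.80 to 43.4%), and in 8 of 66 zygotes. Between same-numbered pronuclei the lead of the proximal over the distal stretch was greater in the maternal one in 5 of 10 pairs (−24.8 to 56.1 points), and among these pronuclei 5 of 11 distal domains were higher in maternal ones (median −1.68). The distal lead was 3.51 points in maternal and 12.2 in paternal pronuclei, and 19.1 in morulae. With the share averaged over intervals of replication score, 6 of the 11 distal domains were higher in maternal pronuclei (median 0.20), so the distal sign depended on these choices.

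Among pronuclei within the score limits, 10 maternal and 10 paternal ones shared a number. In these the maternal nuclei had higher scores (median 67.6, against 64.5 in paternal ones), 843 bins (24.1%, all chromosomes 16.4%) were higher in maternal pronuclei and 231 (6.61%, all chromosomes 13.8%) lower, and 3 domains were higher by 20 points or more, led by domain 30 at 27.2 with Clasp1. Over all 21 and 17 pronuclei domain 30 differed by 8.83. Of the 50 domains, 22 were higher and 8 lower in maternal pronuclei under all 5 ways of choosing cells and shares, and 20 had another sign in at least 1 of them. Domains 2, 6 and 33 were among the 22, and domain 41 among the 8, while domain 48 was in neither.

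**Figure D5:**
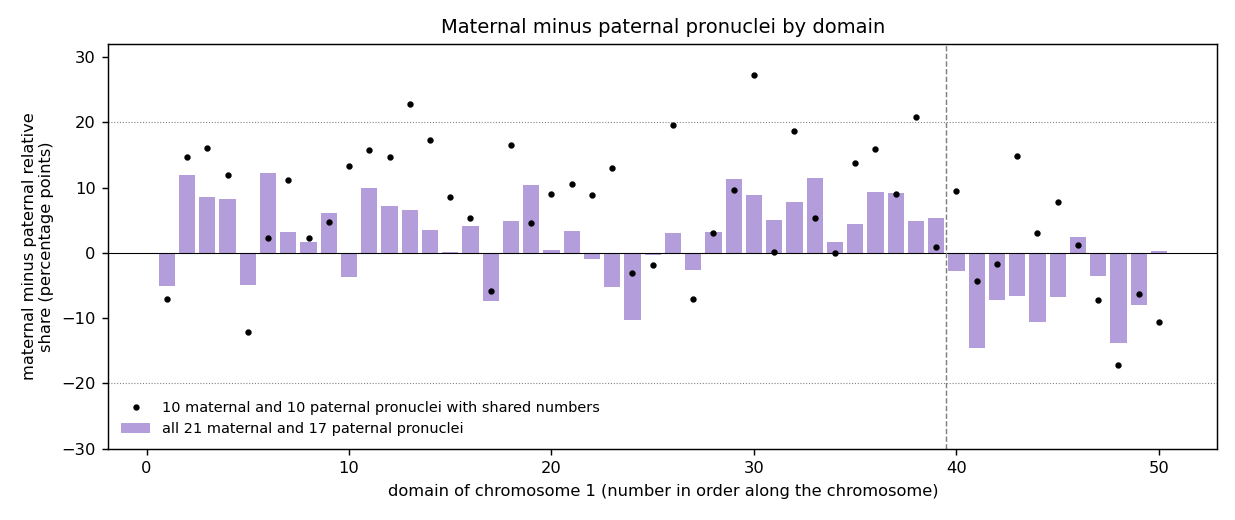
Maternal minus paternal relative share (y axis, percentage points) for the 50 domains in order (x axis), over all 21 maternal and 17 paternal pronuclei (bars) and over the 10 of each that share a number (dots), with dotted lines at 20 points and a dashed line between domains 39 and 40. No bar passes 20 points, and 3 dots do.

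Embryos with a maternal genome only had an order of domains nearest to that of IVF zygotes. The order of the domains in parthenotes correlated at 0.86 with IVF zygotes, 0.75 with zygotes, 0.74 with maternal and 0.70 with paternal pronuclei. In IVF zygotes it correlated at 0.78 with zygotes. Per the study's methods, several IVF zygotes were found to be parthenogenetic by their allelic read ratio and were excluded. Whether the deposited IVF states still hold such cells could not be settled from the sources used here. In parthenotes and in IVF zygotes the gap between the domains always above and always below the mean was smaller than in zygotes (31.7). It was 15.1 in parthenotes and 17.1 in IVF zygotes, against 21.8 in maternal and 27.5 in paternal pronuclei. Zygotes helped to choose these domains and domain 19, and the other groups here did not. The choice by itself can set zygotes farther from the mean, so the gaps and domain 19 shares are a description. The SD over chromosome 1 bins, which does not rest on this choice, was 13.03 in IVF zygotes, 10.96 in parthenotes and 15.3 in zygotes. Over all chromosomes it was 16.1, 12.3 and 15.7. GC content ordered the domains at 0.33 in parthenotes and 0.35 in IVF zygotes. Domain 19 with Erbb4 had a share of 52.6% in parthenotes and 54.9% in IVF zygotes, against 27.6% in zygotes. Its intervals of cells with the domain replicated were 37.3 to 64.4% in parthenotes, 39 to 66% in IVF zygotes and 15.8 to 38% in zygotes. Domain 6 was highest in IVF zygotes (86.3% of cells) and domain 11 lowest in both groups, at −28.1 in parthenotes and −23.8 in IVF zygotes. Parthenotes and IVF zygotes were timed from activation or insemination and zygotes from hCG, so fertilization route and collection cannot be told apart.

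In embryos treated at the zygote stage the order of domains was set beside that of untreated 2-cell embryos. The correlation was 0.82 after α-amanitin, 0.87 after DRB and 0.89 with KDM5B, and zygotes also had 0.82. Over chromosome 1 bins it was 0.69, 0.83 and 0.82, against 0.76 for zygotes. GC content ordered the domains at 0.31 after α-amanitin, 0.60 after DRB and 0.53 with KDM5B, against 0.56 in untreated 2-cell embryos. After α-amanitin 119 bins (3.40%, background 3.41%) were higher and 26 (0.74%, background 3.40%) lower than in untreated embryos, after DRB 20 (0.57%, background 1.55%) higher and 82 (2.34%, background 2.21%) lower, and with KDM5B 19 (0.54%, background 1.15%) higher and 16 (0.46%, background 1.24%) lower. No domain differed by 20 points in any of them. Of all 50 domains 38 were higher after α-amanitin (median 3.59) and 20 after DRB (median −0.82). Of the 13 domains always below the mean 11 were higher after α-amanitin (median 8.36) and 2 after DRB (median −5.75). The Erbb4 domain had shares of 54.8% after α-amanitin, 40.2% after DRB, 38.2% with KDM5B and 36.5% in untreated 2-cell embryos, and its difference after α-amanitin, 16.7 points, was the largest of any domain in these comparisons. The gap between domains always above and always below the mean was 16.9 after α-amanitin, 27.7 after DRB and 20.7 with KDM5B, against 22.5 in untreated embryos. Domains always above the mean were ahead of those always below it in 26 of 42 α-amanitin-treated cells (61.9%, 45.6 to 76.4%), 65 of 67 DRB-treated cells (97.0%, 89.6 to 99.6%), 49 of 56 KDM5B-expressing cells and 48 of 63 untreated cells. All 3 treated groups were compared with the same untreated cells, so their values are not independent of each other. Those untreated cells also helped to choose domain 19 and the domains always above or below the mean, and the treated cells did not. The choice by itself can set the untreated cells farther from the mean, so gaps and counts over these domains are a description.

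At the edges of the stretch the shares did not jump. The first bin kept was replicated in 65.2% and the last bin left out before it in 65.2% of zygotes, and in 78.7% and 80.9% of morulae. At the other end the last bin kept had 59.1% and the next bin 60.6% in zygotes, and 51.1% and 53.2% in morulae.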

How the data were processed

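Single-cell Repli-seq was measured in 1016 labelled samples, each a single cell or pronucleus. For 733 of them the authors deposited a binary replication state, a value of another kind than counts or ratios: 1 (replicated), 0 (not replicated) or missing for each 50-kb bin of chromosomes 1 to 19 of mm10. Per the labels, Bowtie2 2.3.5, SAMtools 1.9 and bedtools 2.29.0 were used. The authors scaled the reads of each bin to its mean over the cells of a stage, without normalization to G1 cells, then smoothed, segmented and split them into 2 states, so that a read excess common to all cells of a stage was scaled out. The states keep no read depth, and the number of cells per group, 17 to 70, sets the precision.

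Of the 733 cells, 714 had a replication score of 10 to 90 and were used. Every deposited cell within these limits was kept: 52 of them failed the study's quality control and 219 have no entry in it. Those without an entry are all paternal pronuclei, all treated 2-cell cells and 37 ICM cells. A bin needed a call in at least 10 cells of each group, a difference counted from 20 percentage points, and a domain counted as replicated in a cell above 50% of its called bins. Domains of at least 1 Mb came from dynamic programming. No test was run, since each group is a single sample. Named domains are the 3 highest and 3 lowest in the mean over stages, in morula minus 2-cell and in maternal minus paternal values, the 3 with the largest range and the largest difference each way at each step. Named genes are members of 7 lists (185 of 189 listed genes were used) that lie in named domains or are the 2 highest and 2 lowest in morula, in morula minus 2-cell and in maternal minus paternal values. Some genes and 1 domain that these rules name are not reported here, though counts include them. The chromosome, domains and lists were chosen with earlier results of these data known. Gene positions are those of GENCODE M21 (1137 protein-coding genes), and sequence that of GRCm38. Alternatives changed the cells, score limits, share, limit of difference, hours and domain number. Python 3.11.15, NumPy 2.4.6, pandas 2.3.3, SciPy 1.17.1 and Matplotlib 3.10.9 were used, and the steps were tested on simulated data.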

Additional observations from a re-analysis of the deposited data

How the results depend on the processing

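Of 235 values under alternatives, 215 were counted as unchanged. Counts, SDs, percentages and correlations were so counted within a ratio of 1.5. The limit for levels, the counting error of the cells, was wide enough that a change of sign passed. The 215 include the 73 levels of chromosome 1, the spreads, the bins always above or below the mean and the correlations with GC. Of the levels, 4 had another sign (zygotes and maternal pronuclei, each without failed cells and without cells over 30 points off). Bins past 20 points either way were 339 for 2-cell against zygote (188 in all cells) and 341 for 16-cell against 8-cell (177) over cells that passed quality control. For 16-cell against 8-cell the count was 107 with the share averaged over 16 score intervals and 466 without the 72 h and 77 h cells, where 8-cell against 4-cell had 399 (254). With only the ICM cells collected after 100 h, an alternative chosen after seeing the data, ICM against morula had 1188 (776). Shares over all chromosomes were not computed for stage steps under alternatives.

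A limit of 30 points left 10 bins for 2-cell against zygote, 61 for 4-cell against 2-cell, 13 for 8-cell against 4-cell, 0 for 16-cell against 8-cell, 0 for morula against 16-cell, 106 for ICM against morula and 398 for morula against zygote. For morula against 2-cell it left 105 higher and 631 lower bins, and for maternal against paternal pronuclei 29 higher and 13 lower. Same-numbered pronuclei had 843 higher bins (221 over all). With 80 domains, 9.86% of the length was higher in morula than in 2-cell cells (5.33% with 50), and 1.24% differed between maternal and paternal pronuclei (0 with 50). The causes were not tested.

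No paired analysis was possible because no result comes from a test and the labels do not say which pronuclei came from the same zygote. As a description, the chromosome 1 share relative to the other chromosomes was higher in the maternal pronucleus in 8 of 10 same-numbered pairs. Same-numbered pronuclei did not deviate together, with correlations of −0.03 to 0.08 over 10 pairs. The number of cells limits all values, most of all the 17 and 21 pronuclei.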
